A study of Arabidopsis thaliana with 26 samples.

Results

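The comparison described here is the change of the high-light effect between 6 and 12 h in Arabidopsis thaliana seedlings. For each gene it is the log2 ratio of high light to growth light at 12 h minus the same ratio at 6 h. It uses 8 of the 26 libraries of a time course, 2 in each of 4 groups, assigned by their labels. Whole seedlings of the Col-0 ecotype, the standard laboratory strain, were 7 days old when the course began and had been raised under constant light of 60 µmol photons m-2 s-1, the growth light, at 22 °C. HL12h and HL6h seedlings were then moved to high light of 1200 µmol photons m-2 s-1 for 12 or 6 h, with a leaf temperature given as 22 °C. GL12h and GL6h seedlings stayed in growth light over the same hours and are the matched controls. The 4 groups share genotype, age at the start and continuous light without a dark period, and no group carries a transgene or a mutation. The other 18 libraries cover 0.5, 24, 48 and 72 h in both lights and a recovery of 14 h. Each library was made from RNA of 25 pooled plants, so it averages over individuals and over all organs. The labels call the libraries of a group duplicates and do not say whether they were grown as separate cultures, so p-values here measure the spread between these libraries, which may be technical.

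Light far above the level a leaf was raised in is absorbed faster than photosynthesis can use it, and reactive oxygen species form in the chloroplast. Plants answer over minutes to days by dissipating energy, shrinking the light-harvesting antenna, making anthocyanin pigments that screen the leaf, and raising antioxidant enzymes and protein chaperones. Many of the same genes also follow the circadian clock, which keeps running in continuous light, so a change of the light effect between 6 and 12 h can come from high light, from growth light or from both. The difference of light effects equals the change in high light, HL12h minus HL6h, minus the change in growth light, GL12h minus GL6h, and both are given throughout.

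Total counts were 29697279 and 27749435 in HL12h, 25463893 and 23972067 in GL12h, 26484916 and 28726408 in HL6h, and 23332223 and 16504899 in GL6h, so replicate 2 of GL6h was the shallowest. Values are given as CPM, read counts relative to library size, with TMM factors as scaling. They compare a gene between libraries and not genes with each other. Across genes tested, log2 CPM of the libraries of a group correlated at 0.994 in HL12h, 0.9924 in GL12h, 0.9929 in HL6h and 0.9906 in GL6h. Markers of green seedlings were present. The 21 light-harvesting antenna genes, which mark green shoot cells, summed to 14883 and 13756 CPM in HL12h, 43587 and 43405 in GL12h, 22857 and 26026 in HL6h, and 74881 and 75918 in GL6h. The 18 markers of root hairs, endodermis and root cap summed to 123 and 134 CPM in HL12h, 195 and 156 in GL12h, 140.0 and 146 in HL6h, and 182 and 137 in GL6h. By edgeR and by DESeq2 no root marker had a called difference between the light effects, and 3 of 18 were lower at an unadjusted p below 0.05. The median difference of the root markers was -0.43 log2, and high light lowered 7 of 18 at 12 h and 2 at 6 h. Without GL12h replicate 2 or GL6h replicate 1 edgeR called 3 or 2 of them lower. The part of root tissue in the results below was not tested. Seed storage genes stayed at or below 1.04 CPM in sum. In whole seedlings, fewer cells of a type and less RNA per cell cannot be told apart.

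Of 21449 genes tested, 842 had a higher light effect at 12 h than at 6 h and 1220 a lower one (edgeR quasi-likelihood test, Benjamini-Hochberg adjusted p below 0.05). These are 3.93% and 5.69% of the genes tested, and 4938 genes had an unadjusted p below 0.05. Counts of called list members below are to be read beside these shares. The light effects themselves were broader. At 12 h high light raised 5163 genes (24.1%) and lowered 4528 (21.1%) against GL12h, and at 6 h it raised 4914 (22.9%) and lowered 3909 (18.2%) against GL6h. Among the steps of the course, the light effect changed in 29.6% of genes between 0.5 and 6 h, 9.61% between 6 and 12 h, 14.8% between 12 and 24 h, 12.3% between 24 and 48 h and 1.14% between 48 and 72 h. Neighbouring steps share libraries. The count of higher genes rested on single libraries, being 537 without GL12h replicate 1, 505 without GL6h replicate 2, 455 without HL12h replicate 2 and 441 without HL6h replicate 2. The count of lower genes was 668 without HL12h replicate 2 and 698 without HL6h replicate 2.

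**Figure D1:**
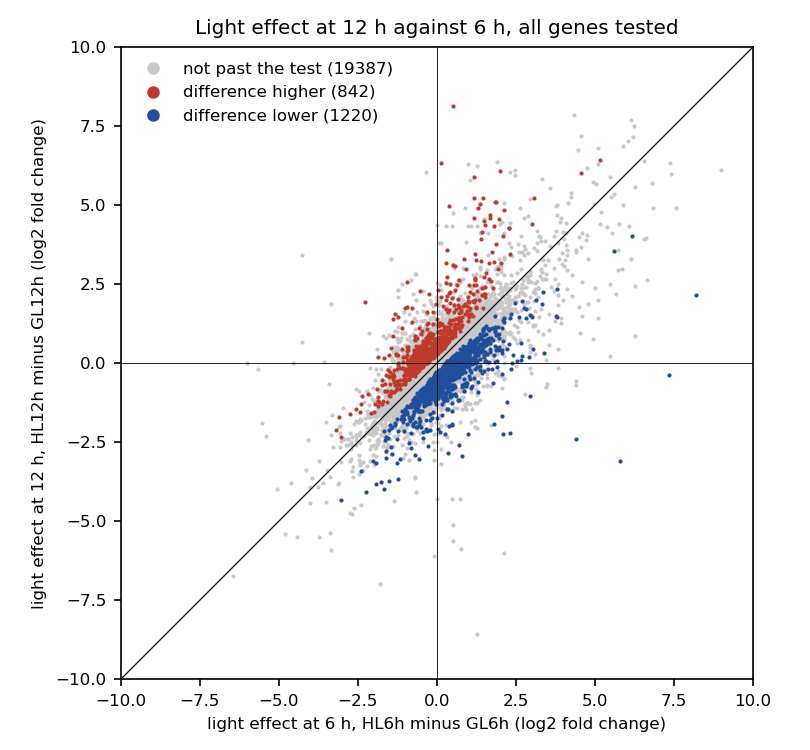
Light effect at 12 h (vertical axis) against light effect at 6 h (horizontal axis), both log2 fold changes of high light over growth light, for the 21449 genes tested, of which 2 lie outside the axes. Red points are the 842 genes with a higher light effect at 12 h, blue points the 1220 with a lower one, and the diagonal marks equal effects.

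Both lights contributed. In high light 1683 genes (7.85%) rose and 1765 (8.23%) fell between 6 and 12 h, and in growth light 1747 (8.14%) rose and 1229 (5.73%) fell. Among the 842 genes with a higher difference, the median change was 0.35 in high light and -0.27 in growth light (log2), and the growth-light part was the larger in 357 genes (42.4%). Among the 1220 with a lower difference, the median change was -0.27 in high light and 0.36 in growth light, and the growth-light part was the larger in 698 (57.2%). The growth-light controls at 12 h were the lowest or the highest of the growth-light times for many of these genes. GL12h had the lowest mean of the 6 growth-light times in 39% of the genes with a higher difference, against 18.9% of all genes tested. It had the highest mean in 53.6% of the genes with a lower difference, against 21% of all genes tested. HL12h was the highest of the 6 high-light times in 33.5% of the genes with a higher difference, against 17.8% of all. It was the lowest in 18.1% of the genes with a lower difference, against 17.5% of all. These shares describe the course and carry no test, since the same libraries chose the genes. Extremes were not counted for 6 h, which enters the difference with equal weight. GL24h lay nearer to GL6h than to GL12h in 48.8% of the genes with a higher difference. The share was 56.6% of those with a lower one and 48% of all genes tested. What lay behind the changes in growth light was not tested.

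**Figure D2:**
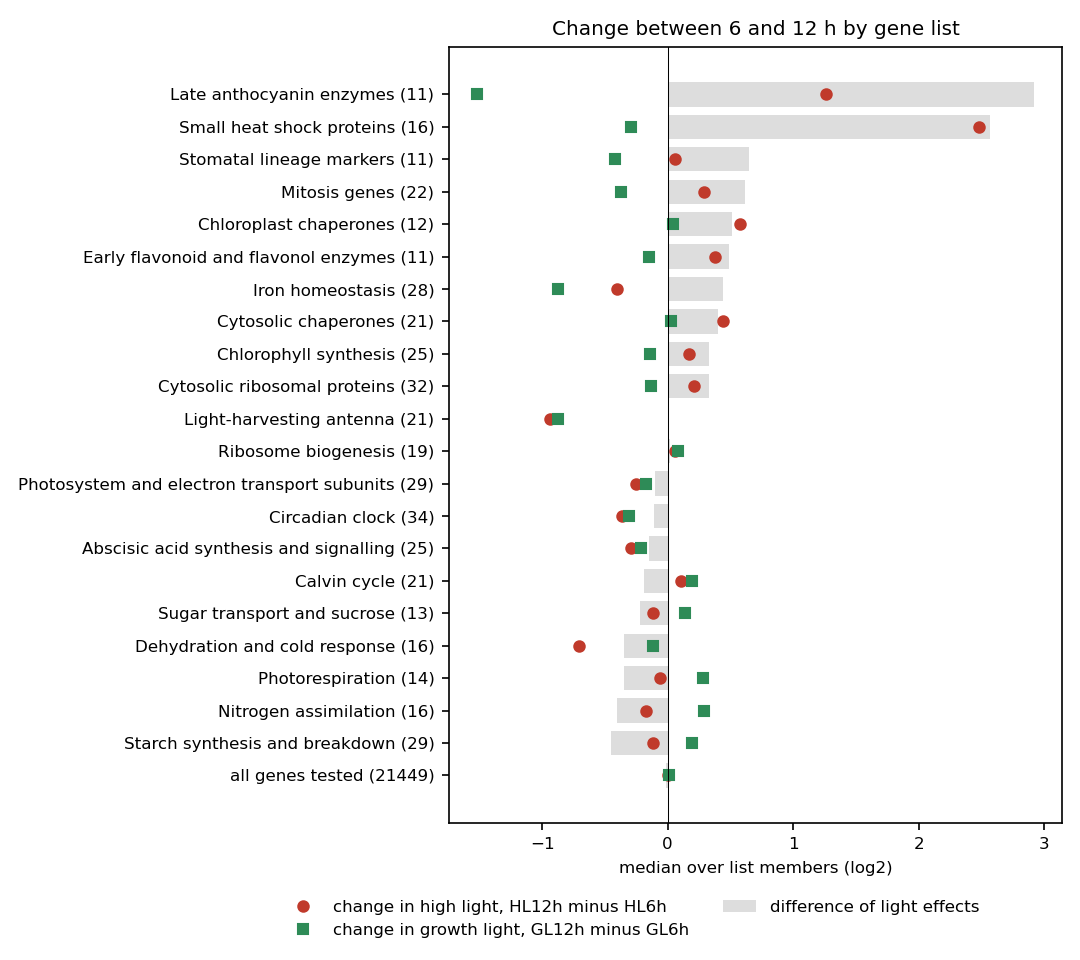
Median log2 change over the members of each gene list, with the number of members tested in brackets. Grey bars show the difference of light effects, red circles the change in high light and green squares the change in growth light. Late anthocyanin enzymes have a bar at 2.92 with circle and square on opposite sides of 0, small heat shock proteins have theirs at 2.57 with the circle at 2.48, and starch genes have theirs at -0.45.

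Small heat shock proteins hold unfolding proteins in solution and are nearly silent in unstressed seedlings. Of 16 members, 9 had a higher difference, 1 a lower one and 6 did not pass, with a median of 2.57 log2, against -0.01 over all genes tested. With the 3 members that had a group at 3 counts or fewer set to a floor of 3 counts per group, the median was 2.12. In high light 10 of 16 rose between 6 and 12 h (median 2.48), and in growth light none passed in either direction (median -0.29). The fitted growth-light change was the larger of the 2 in 5 of 16 members. Their summed level was 314 and 189 CPM in HL12h, 32.5 and 31.8 in GL12h, 40.5 and 34.4 in HL6h, and 27.3 and 33.9 in GL6h. The HL12h libraries lay far above the other 6, which ranged between 27.3 and 40.5. Replicate 1 of HL12h was above replicate 2 by a median of 0.70 log2 over the list, and the count of higher members was 5 in a fit of only the 8 libraries. The member with a lower difference was HSP18.2, named after its value was seen, at -1.03 (adjusted p = 0.038), and it was not called by DESeq2, in the fit of only the 8 libraries or without any 1 of 7 libraries, all but GL6h replicate 2. Members of this family resemble each other in sequence, so reads may be shared between close copies.

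HSP17.6A, a cytosolic small heat shock protein, had 39.1 and 18.9 CPM in HL12h, 0.278 and 0.433 in GL12h, 0.638 and 0.696 in HL6h, and 0.435 and 0.861 in GL6h. Only the HL12h libraries were high, and the other 6 were at or below 0.861 CPM. Its difference was 6.22 ± 1.02 log2 (SE, adjusted p = 0.00044), with a change of 5.43 in high light and -0.79 in growth light, where the change did not pass the test (adjusted p = 0.598). AT1G07400, a class I small heat shock protein, had 38.4 and 24.5 CPM in HL12h, 0.873 and 1.13 in GL12h, 2.7 and 2.05 in HL6h, and 1.65 and 2.03 in GL6h. Its difference was 4.59 ± 0.48 (adjusted p = 2.94e-06). HSP17.4 had 25.2 and 11.9 CPM in HL12h, 0.516 and 0.0865 in GL12h, 0.563 and 1.17 in HL6h, and 0.522 and 0.185 in GL6h. Its difference of 4.70 ± 1.21 (adjusted p = 0.0157) became 3.68 with an adjusted p of 0.379 without GL6h replicate 1, and had an adjusted p of 0.0562 in the fit of only the 8 libraries. HSP23.6, the mitochondrial member, had 412 counts over the HL12h libraries, against 1 in GL12h, 6 in HL6h and 3 in GL6h. Set to the floor of 3 counts per group its difference was 6.36 log2, and its adjusted p of 0.0294 became 0.278 without GL6h replicate 2, 0.0707 without GL12h replicate 1, 0.0586 without GL6h replicate 1 and 0.0558 in the fit of only the 8 libraries.

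Heat shock factors bind the heat shock element, inverted repeats of the unit GAA or its complement TTC. The 250 bases before the annotated gene start were read from the RefSeq assembly TAIR10.1 for members that moved together in high light, and capitals mark heat shock elements of at least a pair of units. The windows lie on the minus strand at chr5:3884839-3885088 for HSP17.6A and at chr3:16984868-16985117 for HSP17.4, written 5′ to 3′ towards the gene.
HSP17.6A: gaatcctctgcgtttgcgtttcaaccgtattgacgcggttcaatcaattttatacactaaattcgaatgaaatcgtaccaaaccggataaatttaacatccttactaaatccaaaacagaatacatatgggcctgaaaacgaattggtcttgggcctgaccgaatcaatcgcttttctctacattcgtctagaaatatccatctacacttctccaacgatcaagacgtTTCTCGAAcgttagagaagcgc
HSP17.4: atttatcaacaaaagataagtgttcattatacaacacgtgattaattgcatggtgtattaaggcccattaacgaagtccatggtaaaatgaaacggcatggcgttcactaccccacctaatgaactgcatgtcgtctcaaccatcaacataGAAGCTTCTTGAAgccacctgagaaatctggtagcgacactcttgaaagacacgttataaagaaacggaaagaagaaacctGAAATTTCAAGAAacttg
Both were searched on both strands for GAANNTTC, for TTCNNGAA and for the 3-unit form, in which both overlap. TTCNNGAA was added to the search after the windows had been seen. The 3-unit form occurred in 2 of the 16 small heat shock protein windows (12.5%). It was in 0.409% of the windows of 20759 genes tested and 0.722% of those with a higher difference. In the same order GAANNTTC occurred in 25%, 9.41% and 8.42%, and TTCNNGAA in 31.2%, 7.49% and 8.9%. The 3-unit form was in 0% of 21 cytosolic and 12 chloroplast chaperone windows and in 14.3% of 21 heat shock factor windows. GAANNTTC was in 9.52%, 8.33% and 19% of these, and TTCNNGAA in 9.52%, 16.7% and 19%. A match describes these letters and not a binding site.

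Cytosolic chaperones refold proteins or pass them on, and many are induced by heat. Of 21 members, 9 had a higher difference and none a lower one (median 0.40), and 16 rose in high light (median 0.44) against 5 in growth light (median 0.03). HSP101, the disaggregase needed for survival of severe heat, had 93.4 and 58.8 CPM in HL12h, 17.0 and 16.4 in GL12h, 14.4 and 13.9 in HL6h, and 18.0 and 15.6 in GL6h. Its difference was 2.44 ± 0.22 (adjusted p = 3.12e-07). At 6 h its light effect was -0.25 (adjusted p = 0.223) and at 12 h it was 2.19. HSP90.1, the heat-inducible cytosolic HSP90, had 244 and 161 CPM in HL12h, 24.1 and 22.8 in GL12h, 25.1 and 27.3 in HL6h, and 19.5 and 16.9 in GL6h, a difference of 2.59 ± 0.22 (adjusted p = 2.78e-07). HOP3, a co-chaperone that joins HSP70 to HSP90, had 44.3 and 29.9 CPM in HL12h against 10.3 to 13.2 CPM in the other 6 libraries. ROF2, a peptidyl-prolyl isomerase that works with HSP90, followed with a difference of 1.94 ± 0.23 (adjusted p = 1.15e-05). In each of these genes the HL12h libraries were the highest of the 8 and replicate 1 was above replicate 2.

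Heat shock factors themselves moved little as a list, with 3 of 19 higher, 1 lower and a median of 0.04. Over all genes tested 3.93% were higher and 5.69% lower. The median light effect of the list was 0.42 at 0.5 h, 0.27 at 6 h and 0.33 at 12 h. HSFA2, the factor that sustains heat shock gene expression, had 26.3 and 16.9 CPM in HL12h, 1.31 and 1.34 in GL12h, 3.49 and 3.62 in HL6h, and 1.09 and 0.492 in GL6h. Already at 0.5 h it averaged 4.61 CPM in high light and 0.558 in growth light. High light raised it at 6 h by 2.08 log2 and at 12 h by 4.02. The difference of 1.94 ± 0.58 (adjusted p = 0.0363) became 1.18 (adjusted p = 0.505) without GL6h replicate 1. Leaving out either GL12h library, HL12h replicate 1 or either HL6h library gave adjusted p between 0.0558 and 0.0822. MBF1C, a heat-responsive transcriptional coactivator, turned direction between 6 and 12 h, but at 0.5 h it averaged 16.4 CPM in high light and 7.78 in growth light. It had 22.4 and 15.2 CPM in HL12h, 10.3 and 9.52 in GL12h, 5.74 and 7.21 in HL6h, and 9.22 and 9.29 in GL6h. High light thus raised it at 12 h by 0.92 log2 and lowered it at 6 h, where its light effect was -0.51 (adjusted p = 0.049), a difference of 1.44 ± 0.27 (adjusted p = 0.00157). The count of higher factors was 1 without GL12h replicate 2, GL6h replicate 1 or HL12h replicate 1.

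Chloroplast chaperones fold imported and newly made plastid proteins. Of 12 members, 9 had a higher difference and none a lower one (median 0.51), and 9 rose in high light between 6 and 12 h. CPN60A, a subunit of the chaperonin that folds Rubisco, had 1909 and 1879 CPM in HL12h, 986 and 1073 in GL12h, 982 and 1015 in HL6h, and 830.0 and 913 in GL6h. Its difference was 0.68 ± 0.15 (adjusted p = 0.00533). Cpn60beta2, the partner subunit, had 822 and 821 CPM in HL12h, 386 and 409 in GL12h, 427 and 416 in HL6h, and 319 and 362 in GL6h, a difference of 0.74 ± 0.16 (adjusted p = 0.00459). In both genes the HL12h libraries were the highest of the 8 and did not overlap with any other group. The count of higher members was 4 without GL12h replicate 1, GL6h replicate 2 or HL6h replicate 2, and 5 in a fit of only the 8 libraries. Of 11 mitochondrial stress genes 3 had a higher difference. The strongest was AT2G21640, with 25.1 and 18.2 CPM in HL12h, 2.34 and 2.47 in GL12h, 3.53 and 2.82 in HL6h, and 3.09 and 1.91 in GL6h, a difference of 2.87 ± 0.38 (adjusted p = 5.43e-05). The mitochondrial count was 5 without GL6h replicate 2 or HL6h replicate 2, 5 with upper-quartile factors or without a filter, and 6 with DESeq2. The 14 chaperones and folding enzymes of the endoplasmic reticulum had no called difference by edgeR or DESeq2, none at an unadjusted p below 0.05, and a median of -0.02. Without GL6h replicate 1 edgeR called 1 of them lower.

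**Figure D3:**
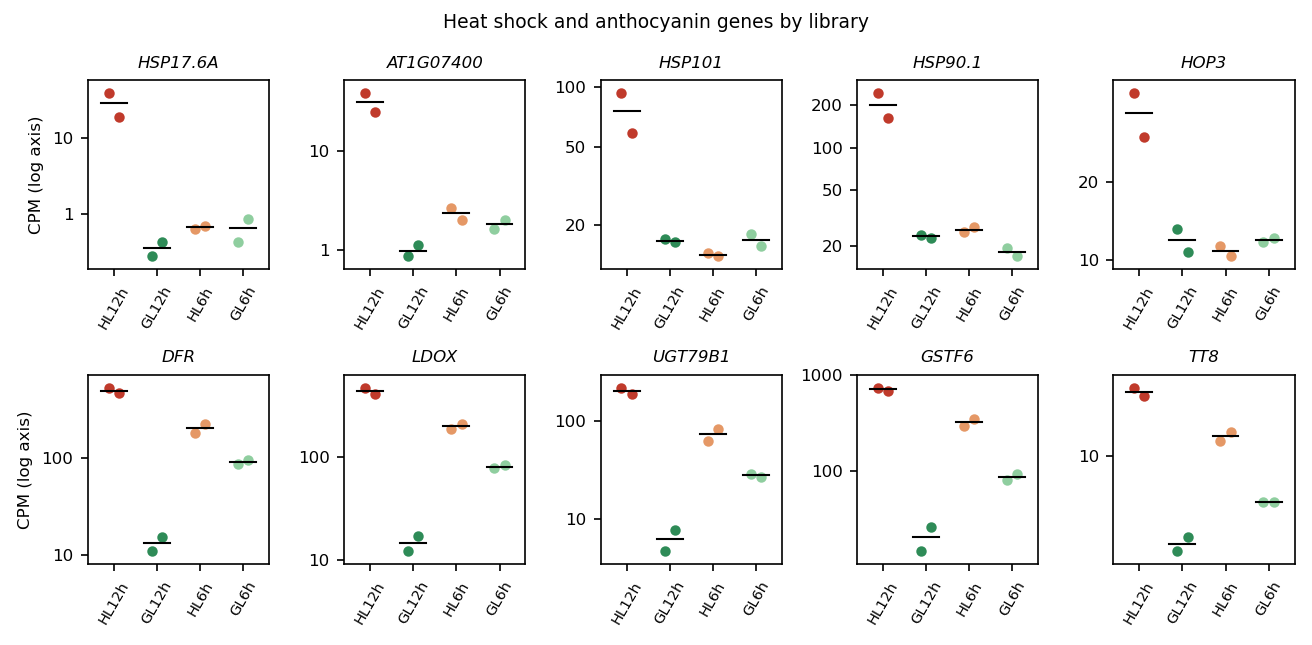
CPM on a log axis in each library of HL12h, GL12h, HL6h and GL6h for 5 chaperone genes (upper row) and 5 anthocyanin genes (lower row). Points are libraries and bars are group means. The chaperone genes are high in HL12h alone, and the anthocyanin genes are highest in HL12h and lowest in GL12h.

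Anthocyanin genes showed the other form of a higher difference, with opposite changes in the lights. The pathway runs from phenylalanine through chalcones, flavanones and dihydroflavonols to coloured glycosides, with flavonols as a side branch, and the late enzymes are switched on together by a MYB, bHLH and WD40 complex. All 11 late anthocyanin enzymes had a higher difference, against 3.93% of genes tested, with a median of 2.92. In high light 11 of 11 rose (median 1.26), and in growth light 10 of 11 fell (median -1.52), where the change was the larger part in 8 of them. The list summed to 2816 and 2478 CPM in HL12h, 160.0 and 181 in GL12h, 1154 and 1376 in HL6h, and 470.0 and 474 in GL6h, and no groups overlapped. DFR, which makes leucoanthocyanidins, had 531 and 464 CPM in HL12h, 11.0 and 15.5 in GL12h, 180.0 and 227 in HL6h, and 87.6 and 95.3 in GL6h. Its difference was 4.07 ± 0.30 (adjusted p = 4.07e-08), made of a change of 1.29 in high light and -2.79 in growth light. GL12h was low against the whole course, since the lowest growth-light library of DFR at the other 5 times had 45.1 CPM.

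LDOX, the next enzyme, had 475 and 414 CPM in HL12h, 12.3 and 17.1 in GL12h, 188 and 212 in HL6h, and 78.8 and 83.6 in GL6h, a difference of 3.62 ± 0.29 (adjusted p = 1.34e-07). The glycosyltransferase UGT79B1 had 215 and 184 CPM in HL12h, 4.72 and 7.7 in GL12h, 62.2 and 82.6 in HL6h, and 28.9 and 27.0 in GL6h, a difference of 3.64 ± 0.31 (adjusted p = 2.78e-07). The glycosyltransferase AT4G14090 and the malonyltransferase 5MAT, which decorate the pigment, had differences of 3.02 ± 0.26 and 3.01 ± 0.29 (adjusted p = 2.96e-07 and 1.08e-06). GSTF6, a glutathione transferase outside the pathway list, had the same pattern with 736 and 686 CPM in HL12h, 14.8 and 26.5 in GL12h, 292 and 349 in HL6h, and 81.3 and 94.3 in GL6h. Its difference was 3.24 ± 0.32 (adjusted p = 1.29e-06), and GSTF5 followed with 3.27 ± 0.41 (adjusted p = 3.07e-05). In all 6 genes HL12h was above HL6h, HL6h above GL6h and GL6h above GL12h with no overlap between groups. Some of them were named by a rule that required light effects without overlap, so this separation is a description and not support.

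The G-box CACGTG is bound by light-responsive factors of several families. It occurred in 3 of the 11 late anthocyanin windows (27.3%), in 7.41% of the windows of genes tested, in 11.1% of those with a higher difference and in 6.03% of those with a lower one. The windows of 2 members that hold it are shown with the G-box in capitals, both on the minus strand of TAIR10.1 and written 5′ to 3′. DFR lies at chr5:17166033-17166282 and UGT79B1 at chr5:21938397-21938646.
DFR: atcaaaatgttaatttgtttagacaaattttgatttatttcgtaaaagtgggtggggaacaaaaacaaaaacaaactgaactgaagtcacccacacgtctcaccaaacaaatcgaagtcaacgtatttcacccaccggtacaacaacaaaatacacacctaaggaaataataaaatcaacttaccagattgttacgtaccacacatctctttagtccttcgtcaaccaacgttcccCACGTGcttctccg
UGT79B1: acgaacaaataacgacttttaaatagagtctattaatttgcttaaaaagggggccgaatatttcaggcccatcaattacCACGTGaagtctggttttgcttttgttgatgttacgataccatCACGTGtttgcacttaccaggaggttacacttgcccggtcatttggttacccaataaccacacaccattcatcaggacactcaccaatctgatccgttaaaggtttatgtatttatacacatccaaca

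Upstream steps moved less. Of 11 early flavonoid and flavonol enzymes, 6 had a higher difference and 1 a lower one (median 0.49), and of 9 enzymes of phenylpropanoid entry 4 were higher. CHS, the entry enzyme of the flavonoid pathway, had 3126 and 3057 CPM in HL12h, 467 and 392 in GL12h, 1401 and 1847 in HL6h, and 621 and 492 in GL6h, a difference of 1.30 ± 0.19 (adjusted p = 0.000135). PAL1, the entry from phenylalanine, had 1581 and 1500 CPM in HL12h, 382 and 341 in GL12h, 971 and 1186 in HL6h, and 625 and 470.0 in GL6h, a difference of 1.12 ± 0.16 (adjusted p = 0.000122). F3'H, which adds a hydroxyl group on the B ring, had the largest early difference at 2.53 ± 0.22 (adjusted p = 3.12e-07). The lower early member was OMT1 (-0.38), named after its value was seen, and it was not called in the fit of only the 8 libraries or without any 1 of 7 libraries, all but GL6h replicate 1. No other early member was lower. Among 16 regulators, 4 were higher and 2 lower, the counts being 7 higher without a filter and 1 lower without any 1 library other than HL12h replicate 1. TT8, the bHLH partner of the complex, had 41.5 and 34.9 CPM in HL12h, 1.39 and 1.86 in GL12h, 13.8 and 16.5 in HL6h, and 3.87 and 3.88 in GL6h, a difference of 2.59 ± 0.27 (adjusted p = 2.29e-06). MYB12, an activator of flavonol genes, had 18.5 and 19.8 CPM in HL12h, 8.49 and 6.4 in GL12h, 10.8 and 13.1 in HL6h, and 10.1 and 6.21 in GL6h. Its difference of 0.84 ± 0.24 (adjusted p = 0.0307) became 0.42 (adjusted p = 0.363) without GL6h replicate 1. It also did not pass without GL12h replicate 2, HL12h replicate 2 or HL6h replicate 1, or in the fit of only the 8 libraries, with adjusted p between 0.0904 and 0.149. The anthocyanin activators PAP1 and PAP2 did not pass. PAP1 had a difference of 0.81 ± 0.28 (adjusted p = 0.0728) with 97.7 and 81.4 CPM in HL12h, 6.94 and 7.83 in GL12h, 67.7 and 89.0 in HL6h, and 10.6 and 12.1 in GL6h, and it passed without HL6h replicate 2 (1.02, adjusted p = 0.0398), without a filter (adjusted p = 0.00156) and in the fit of only the 8 libraries (adjusted p = 0.0454). PAP2 had a difference of 1.26 ± 0.78 (adjusted p = 0.365). MYBL2, a repressor of the complex, was called with 1.20 ± 0.29 (adjusted p = 0.00976) and had an adjusted p of 0.0548 without GL6h replicate 2, where the difference was 1.03.

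Of 20 genes of photoprotection and photosystem II repair, 3 had a higher difference, 2 a lower one and 15 did not pass (median -0.04). ELIP1, an early light-induced protein that binds chlorophyll under stress, had 1372 and 1227 CPM in HL12h, 16.6 and 13.6 in GL12h, 996 and 1034 in HL6h, and 27.7 and 29.7 in GL6h. Its light effect was 6.43 log2 at 12 h and 5.15 at 6 h, a difference of 1.28 ± 0.17 (adjusted p = 7.09e-05), with a change of 0.36 in high light and -0.92 in growth light. ELIP2 had 339 and 342 CPM in HL12h, 5.75 and 4.72 in GL12h, 304 and 335 in HL6h, and 13.4 and 13.9 in GL6h, a difference of 1.47 ± 0.27 (adjusted p = 0.00116) that lay in growth light. VDE, the enzyme that forms zeaxanthin, was lower at -0.58 ± 0.12 (adjusted p = 0.00444), and so was the chloroplast lipocalin CHL at -0.82 ± 0.14 (adjusted p = 0.00056). Of 21 genes of the light-harvesting antenna, which shrinks in high light, 17 fell and 1 rose in high light between 6 and 12 h (median -0.94), and 14 fell in growth light (median -0.87). The difference was higher in 1, lower in 1 and not called in 19 (median 0.00). The higher one was LHCB4.3, with 125 and 110.0 CPM in HL12h, 23.8 and 27.9 in GL12h, 59.7 and 76.1 in HL6h, and 22.6 and 24.7 in GL6h, a difference of 0.66 ± 0.17 (adjusted p = 0.0176). It did not pass without GL12h replicate 1, GL6h replicate 2, HL12h replicate 1 or HL6h replicate 1, with adjusted p between 0.0731 and 0.0932. The lower one was LHCB7 (-0.39, adjusted p = 0.0275), which was not called by DESeq2, in the fit of only the 8 libraries or without GL12h replicate 1, either GL6h library, HL12h replicate 2 or HL6h replicate 1. LHCB2.2, an antenna protein of photosystem II, had 103 and 90.6 CPM in HL12h, 481 and 452 in GL12h, 256 and 266 in HL6h, and 1377 and 1487 in GL6h. Its light effect was -2.27 at 12 h and -2.46 at 6 h, and the difference of 0.19 ± 0.26 did not pass (adjusted p = 0.726).

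Chlorophyll synthesis gave a higher difference in 11 of 25 genes and a lower one in 2 (median 0.33). Here the light effect was negative and became smaller, with a median of -0.23 at 12 h and -0.59 at 6 h. HEME2, uroporphyrinogen decarboxylase, had 221 and 218 CPM in HL12h, 242 and 277 in GL12h, 172 and 164 in HL6h, and 318 and 360.0 in GL6h, a difference of 0.77 ± 0.10 (adjusted p = 4.81e-05). CHLI2, a subunit of magnesium chelatase, had 107 and 101 CPM in HL12h, 97.3 and 109 in GL12h, 78.7 and 76.4 in HL6h, and 113 and 141 in GL6h, a difference of 0.73 ± 0.11 (adjusted p = 0.000238). HEMA1, which commits glutamate to the pathway, went the other way at -0.92 ± 0.22 (adjusted p = 0.0101). The count of higher genes was 7 without GL12h replicate 1 or GL6h replicate 2 and in the fit of only the 8 libraries. Of 11 chlorophyll breakdown genes 2 had a lower difference, none a higher one and 9 did not pass, with a median of 0.19. NYC1, a chlorophyll b reductase that starts antenna breakdown, had 225 and 220.0 CPM in HL12h, 174 and 182 in GL12h, 213 and 231 in HL6h, and 55.1 and 51.7 in GL6h. Its difference of -1.73 ± 0.24 (adjusted p = 6.99e-05) came from growth light, where it changed by 1.74, against 0.01 in high light.

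In NYC1 GL6h was the low group of the 4, but over the course GL12h stood apart. Its growth-light means were 45.8 CPM at 0.5 h, 53.4 at 6 h, 178 at 12 h, 54.4 at 24 h, 72.0 at 48 h and 74.8 at 72 h. Antioxidant enzymes remove hydrogen peroxide and other reactive oxygen species. Of 38 antioxidant genes 7 had a lower difference and 4 a higher one (median -0.09), the count of higher genes being 9 without GL6h replicate 1, 2 without GL12h replicate 1, and 1 without GL6h replicate 2 or HL6h replicate 2. CAT2, the main leaf catalase, had 1671 and 1468 CPM in HL12h, 1775 and 1890.0 in GL12h, 1966 and 2416 in HL6h, and 906 and 796 in GL6h. Only GL6h was low, also over the course, with growth-light means of 1849 CPM at 0.5 h, 851 at 6 h, 1832 at 12 h and 1581 to 1870.0 at later times. The difference was -1.59 ± 0.16 (adjusted p = 2.41e-06), with a change of -0.48 in high light and 1.11 in growth light. APX1, cytosolic ascorbate peroxidase, had 1496 and 1386 CPM in HL12h, 1014 and 1013 in GL12h, 1777 and 1967 in HL6h, and 525 and 446 in GL6h. Its difference was -1.44 ± 0.18 (adjusted p = 2.13e-05). In growth light it averaged 480.0 CPM at 0.5 h, 485 at 6 h, 1014 at 12 h and 569 to 666 at later times, so GL12h was the highest. CAT3 had 498 and 480.0 CPM in HL12h, 1832 and 2104 in GL12h, 373 and 469 in HL6h, and 560.0 and 649 in GL6h, so GL12h alone was high, and its difference was -1.49 ± 0.22 (adjusted p = 0.000189). GPX7, a chloroplast glutathione peroxidase, was higher at 1.40 ± 0.24 (adjusted p = 0.000702), having 61.4 and 53.5 CPM in HL12h, 2.46 and 2.99 in GL12h, 62.7 and 58.1 in HL6h, and 7.91 and 7.08 in GL6h. APX2, the peroxidase known for its induction by excess light, stayed at or below 0.423 CPM in the 8 libraries, and its difference did not pass (-0.71, adjusted p = 0.775).

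Iron genes moved in both directions. Of 28 members 12 had a higher difference and 6 a lower one (median 0.44), and in growth light 17 fell and 5 rose between 6 and 12 h (median -0.87), against 11 and 2 in high light (median -0.40). FER1, the leaf ferritin that stores iron in plastids, had 98.1 and 107 CPM in HL12h, 95.8 and 109 in GL12h, 140.0 and 134 in HL6h, and 34.3 and 17.7 in GL6h. In growth light it averaged 103 CPM at 12 h and between 17.8 and 39.6 at the other 5 times, so GL12h was the highest. Its light effect was 0.00 at 12 h and 2.37 at 6 h, a difference of -2.37 ± 0.41 (adjusted p = 0.000734). NAS3, a nicotianamine synthase that makes an iron chelator, had 6.87 and 6.13 CPM in HL12h, 5.28 and 6.06 in GL12h, 9.9 and 10.6 in HL6h, and 1.57 and 1.11 in GL6h, a difference of -2.70 ± 0.35 (adjusted p = 4.81e-05). YSL1, a transporter of the iron complex, was lower at -1.49 ± 0.19 (adjusted p = 3.36e-05). NEET, an iron-sulfur protein outside the list, had 48.0 and 44.3 CPM in HL12h, 34.6 and 38.8 in GL12h, 50.3 and 50.0 in HL6h, and 5.04 and 4.43 in GL6h. Its difference of -3.06 ± 0.50 (adjusted p = 0.000472) had GL6h as the only low group of the 4, while over the course GL12h was the highest growth-light time, with means of 9.92 CPM at 0.5 h, 4.74 at 6 h, 36.7 at 12 h and 18.3 to 22.2 at later times.

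The higher genes included regulators of the iron deficiency response. BHLH101, a factor of the deficiency response, had 1.94 and 2.02 CPM in HL12h, 5.79 and 7.14 in GL12h, 2.81 and 2.12 in HL6h, and 19.3 and 23.0 in GL6h. Its difference of 1.39 ± 0.35 (adjusted p = 0.0141) had adjusted p of 0.0505, 0.0709 and 0.0801 without GL12h replicate 1, HL12h replicate 2 and HL6h replicate 2. The related factors BHLH39 and BHLH100 and the ligase gene BTS, named after their values were seen, had differences of 1.23, 1.33 and 1.01 (adjusted p = 0.00688, 0.0124 and 0.000399). BTS had 241 and 231 CPM in HL12h, 297 and 327 in GL12h, 211 and 229 in HL6h, and 578 and 593 in GL6h, so GL6h was the highest group. FER2, the ferritin known from seeds, was higher at 1.73 ± 0.32 (adjusted p = 0.00151) with 8.42 and 7.67 CPM in HL12h, 1.59 and 1.64 in GL12h, 3.3 and 2.64 in HL6h, and 2.13 and 1.78 in GL6h.

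**Figure D4:**
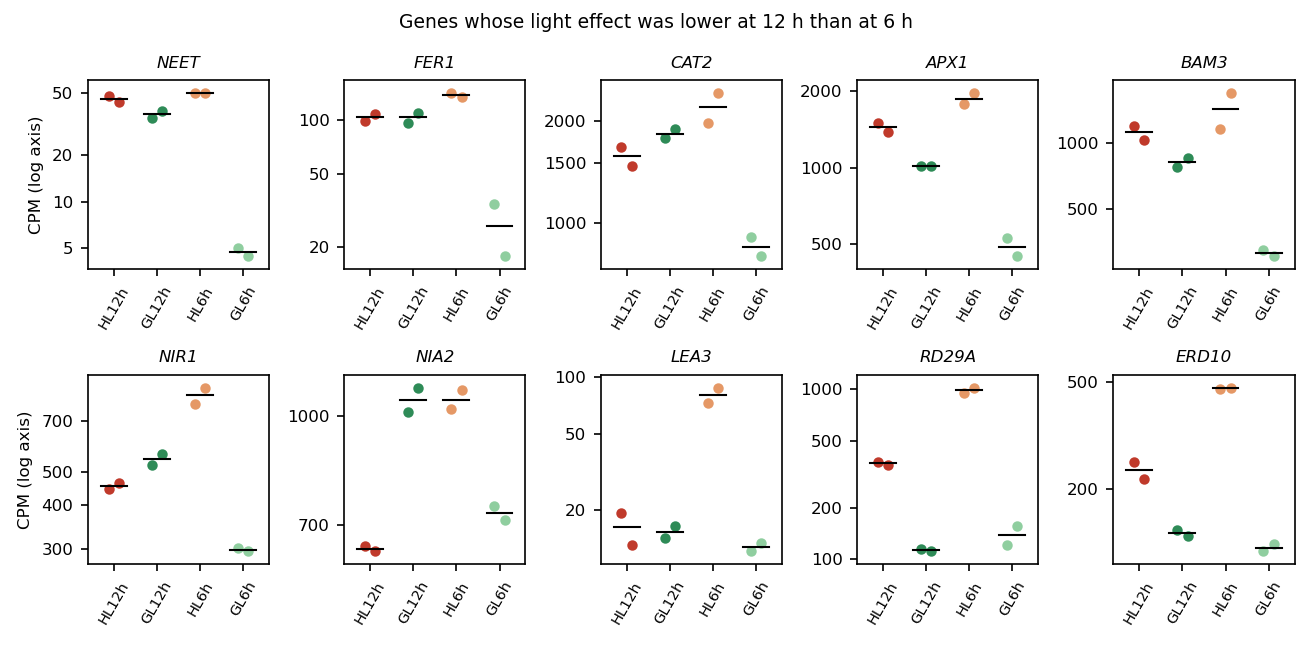
CPM on a log axis in each library of HL12h, GL12h, HL6h and GL6h for 10 genes with a lower light effect at 12 h. Points are libraries and bars are group means. In NEET, FER1, CAT2, APX1 and BAM3 the low group is GL6h, and in LEA3, RD29A and ERD10 the high group is HL6h.

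Starch and sucrose metabolism takes up the carbon that photosynthesis fixes. Of 29 genes of starch synthesis and breakdown, 12 had a lower difference and none a higher one (median -0.45), against 5.69% of genes tested. Over the whole list 9 of 29 rose and 2 fell in growth light, while 2 rose and 9 fell in high light. BAM3, the main plastid beta-amylase, had 1206 and 1042 CPM in HL12h, 780.0 and 854 in GL12h, 1169 and 1706 in HL6h, and 322 and 302 in GL6h, a difference of -1.74 ± 0.17 (adjusted p = 1.24e-06). GBSS1, granule-bound starch synthase, fell in both lights. It had 123 and 95.2 CPM in HL12h, 111 and 111 in GL12h, 305 and 411 in HL6h, and 191 and 187 in GL6h, a difference of -0.94 ± 0.20 (adjusted p = 0.0041). The debranching enzyme ISA3 and the phosphorylase PHS2 had differences of -0.82 ± 0.17 and -0.98 ± 0.18 (adjusted p = 0.00275 and 0.0012). GPT2, which imports glucose phosphate into plastids, had a light effect of 5.97 log2 at 12 h and 7.41 at 6 h, and the difference of -1.44 ± 0.47 did not pass (adjusted p = 0.057). Without a filter, with DESeq2, or without GL12h replicate 1, HL12h replicate 1 or HL6h replicate 1, GPT2 did pass, with differences between -1.42 and -1.84. The count of lower starch genes was 7 without HL6h replicate 2. SPS1F, which makes sucrose phosphate, had 333 and 307 CPM in HL12h, 214 and 219 in GL12h, 313 and 425 in HL6h, and 130.0 and 123 in GL6h, a difference of -0.98 ± 0.14 (adjusted p = 0.000151). Of 13 sugar transport and sucrose genes 5 were lower, a count of 2 without GL12h replicate 2, HL12h replicate 2 or HL6h replicate 2, and 3 without GL6h replicate 1.

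In nitrate assimilation some genes were lowered by high light at 12 h and raised by it at 6 h. Of 16 members 7 had a lower difference and none a higher one (median -0.40), a count of 4 without GL12h replicate 1. NIR1, nitrite reductase, had 446 and 464 CPM in HL12h, 524 and 564 in GL12h, 789 and 876 in HL6h, and 301 and 295 in GL6h. High light lowered it at 12 h, where its light effect was -0.26 (adjusted p = 0.0142), and raised it at 6 h by 1.48, a difference of -1.74 ± 0.12 (adjusted p = 1.41e-08). NIA2, the main nitrate reductase, had 653 and 643 CPM in HL12h, 1011 and 1095 in GL12h, 1021 and 1088 in HL6h, and 745 and 712 in GL6h, a difference of -1.23 ± 0.15 (adjusted p = 2.12e-05). UPM1, which acts in the synthesis of the sirohaem cofactor of nitrite reductase, had 123 and 129 CPM in HL12h, 159 and 155 in GL12h, 151 and 151 in HL6h, and 91.6 and 92.6 in GL6h, a difference of -1.03 ± 0.11 (adjusted p = 2.29e-06). BT1, a nitrate-responsive scaffold protein, moved in the same direction at -2.40 ± 0.26 (adjusted p = 4.08e-06). In these genes HL6h was above GL6h and HL12h was below GL12h in every library. Photorespiration, which recycles the product of Rubisco's oxygenase reaction, had 7 of 14 lower and none higher (median -0.35), with 9 of 14 rising in growth light. AGT1, a peroxisomal aminotransferase, had 1187 and 1085 CPM in HL12h, 1093 and 1128 in GL12h, 1289 and 1475 in HL6h, and 786 and 877 in GL6h, a difference of -0.70 ± 0.13 (adjusted p = 0.00112). The photorespiration count was 4 without GL12h replicate 2 or HL6h replicate 2, and 3 without HL12h replicate 2 or in the fit of only the 8 libraries.

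Of 16 dehydration and cold response genes, 4 had a lower difference, none a higher one and 12 did not pass (median -0.35). All 16 were raised by high light at 6 h and 15 at 12 h, with medians of 1.73 log2 at 12 h and 2.13 at 6 h. At 24 h the median light effect was 2.33. Between 6 and 12 h 9 of 16 fell in high light (median -0.71) and 3 in growth light (median -0.12). RD29A, a marker of drought and cold response, had 375 and 361 CPM in HL12h, 115 and 112 in GL12h, 951 and 1023 in HL6h, and 121 and 157 in GL6h. Its difference was -1.13 ± 0.21 (adjusted p = 0.00132), with a change of -1.42 in high light and -0.29 in growth light. The dehydrin ERD10 had 252 and 219 CPM in HL12h, 141 and 134 in GL12h, 471 and 475 in HL6h, and 118 and 125 in GL6h, a difference of -1.19 ± 0.15 (adjusted p = 4.56e-05). LEA3, a late embryogenesis abundant protein outside the list, was not set apart from its control at 12 h. At 24 h it was above it again, with means of 48.2 CPM in high light and 16.3 in growth light. It had 19.2 and 13.1 CPM in HL12h, 14.2 and 16.3 in GL12h, 72.6 and 87.4 in HL6h, and 12.1 and 13.4 in GL6h, a difference of -2.57 ± 0.22 (adjusted p = 2.85e-07). AT4G39320, annotated as a microtubule-associated protein-like gene, had a similar order with 3.0 and 2.57 CPM in HL12h, 2.06 and 2.08 in GL12h, 20.0 and 16.8 in HL6h, and 2.3 and 2.09 in GL6h, a difference of -2.63 ± 0.33 (adjusted p = 3.07e-05). In all 4 genes HL6h was the highest group with no overlap.

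Abscisic acid is a hormone known to act in dehydration responses, and its part in the changes above was not tested. Its genes had 4 of 25 lower and none higher (median -0.15), against 5.69% and 3.93% of genes tested. In high light 14 fell (median -0.29), and in growth light 6 fell and 1 rose (median -0.21). The median light effect of the list was 0.87 at 6 h, 0.73 at 12 h and 1.18 at 24 h. NCED3, the rate-limiting enzyme of stress-induced abscisic acid synthesis, had 25.1 and 16.9 CPM in HL12h, 4.48 and 4.37 in GL12h, 46.4 and 43.6 in HL6h, and 4.17 and 4.55 in GL6h. Its difference of -1.13 ± 0.29 (adjusted p = 0.0157) had adjusted p of 0.0609, 0.0681 and 0.0565 without GL12h replicate 1, GL6h replicate 1 and HL12h replicate 2, and the count of lower genes was 2 without any of these libraries. HAI1, a phosphatase induced by abscisic acid, had a difference of -0.49 ± 0.44 (adjusted p = 0.57). ABF1, a bZIP factor of the response, was lower at -0.83 ± 0.11 (adjusted p = 6.99e-05).

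The circadian clock changed in both lights, and growth light held the larger part for the called genes named here. Of 34 members 12 rose and 15 fell in growth light between 6 and 12 h, against 8.14% and 5.73% of genes tested. In high light 5 rose and 16 fell, against 7.85% and 8.23%. The difference was higher in 3 and lower in 10 (median -0.11), against 3.93% and 5.69%. CCA1, a morning factor, had 20.2 and 21.2 CPM in HL12h, 35.6 and 31.5 in GL12h, 73.6 and 76.7 in HL6h, and 148 and 142 in GL6h, so it fell in both lights and its difference of 0.25 ± 0.14 did not pass (adjusted p = 0.287). FKF1, a blue-light receptor of the photoperiod pathway that peaks late in the day, had 34.1 and 36.4 CPM in HL12h, 31.3 and 39.3 in GL12h, 35.5 and 37.7 in HL6h, and 15.0 and 17.6 in GL6h. GL6h was the low group of the 4 and the other 3 overlapped, with a difference of -1.18 ± 0.19 (adjusted p = 0.000383). Over the course GL12h stood apart, with a growth-light mean of 35.3 CPM against 7.77 to 16.3 at the other times. PRR5, an evening-phased repressor, had 41.1 and 42.0 CPM in HL12h, 35.2 and 40.2 in GL12h, 48.1 and 50.6 in HL6h, and 18.0 and 20.4 in GL6h, a difference of -1.23 ± 0.18 (adjusted p = 0.00012). GI, which works with FKF1, had 106 and 108 CPM in HL12h, 79.0 and 78.2 in GL12h, 137 and 166 in HL6h, and 46.7 and 47.9 in GL6h, a difference of -1.23 ± 0.24 (adjusted p = 0.00213). In growth light PRR5 averaged 37.7 CPM at 12 h and 13.8 to 19.2 at the other times. GI averaged 78.6 CPM at 12 h and 30.5 to 47.3 at the other times. RVE1, a morning factor, was higher at 1.09 ± 0.17 (adjusted p = 0.000294) with 6.73 and 8.0 CPM in HL12h, 13.5 and 12.2 in GL12h, 10.3 and 8.64 in HL6h, and 36.3 and 33.8 in GL6h. The count of lower clock genes was 6 without GL6h replicate 1, and that of higher ones 7 without a filter.

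The evening element AAAATATCT is the site through which morning MYB factors of the clock repress evening genes. It occurred in 6.69% of the windows of genes with a lower difference, 1.2% of those with a higher one, 2.47% of those tested and 26.5% of the 34 clock windows. FKF1 carries a copy on the opposite strand, in capitals, in its window on the plus strand at chr1:25508389-25508638.
FKF1: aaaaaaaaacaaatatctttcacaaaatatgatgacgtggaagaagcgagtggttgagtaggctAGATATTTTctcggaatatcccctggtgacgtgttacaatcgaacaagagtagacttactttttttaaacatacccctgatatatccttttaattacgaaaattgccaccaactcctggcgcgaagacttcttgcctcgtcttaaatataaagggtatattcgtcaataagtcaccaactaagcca

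Growth genes differed by process. Of 22 mitosis genes 12 had a higher difference and none a lower one (median 0.62). At 6 h high light lowered 20 of 22 (median -0.61), and at 12 h it raised 1 and lowered none (median 0.02). Between 6 and 12 h 8 rose in high light and 9 fell in growth light. CYCA1;1, a mitotic cyclin, had 19.1 and 20.3 CPM in HL12h, 16.7 and 17.1 in GL12h, 14.3 and 14.6 in HL6h, and 22.5 and 21.8 in GL6h, a difference of 0.83 ± 0.15 (adjusted p = 0.00118). KNOLLE, the syntaxin of the cell plate, had 42.1 and 41.6 CPM in HL12h, 42.6 and 42.3 in GL12h, 36.2 and 31.0 in HL6h, and 54.3 and 65.2 in GL6h, a difference of 0.81 ± 0.16 (adjusted p = 0.00299). In KNOLLE the 4 libraries of 12 h lay between 41.6 and 42.6 CPM, and those of HL6h and GL6h lay below and above them. The mitosis count was 7 without GL12h replicate 2, 5 without GL6h replicate 2 or HL12h replicate 2 and 6 without HL6h replicate 2. Stomatal lineage markers, which mark dividing epidermal cells, were higher in 3 of 11 (median 0.65), in 1 of 11 without HL12h replicate 2 or HL6h replicate 2, and in 5 without a filter. In high light none of the stomatal markers rose and 1 fell between 6 and 12 h (median 0.06), while 6 fell in growth light (median -0.42). Of 32 cytosolic ribosomal proteins 13 had a higher difference and none a lower one (median 0.33). Of these proteins 10 rose in high light (median 0.21) and 1 fell in growth light (median -0.13). RPS5A had 468 and 475 CPM in HL12h, 341 and 337 in GL12h, 394 and 371 in HL6h, and 357 and 384 in GL6h, a difference of 0.43 ± 0.09 (adjusted p = 0.00513). The ribosomal count was 4 without either GL12h library, 2 without GL6h replicate 2, 7 without HL12h replicate 1, 1 without HL12h replicate 2 or HL6h replicate 2, and 3 in a fit of only the 8 libraries. Ribosome biogenesis genes were raised by high light in 19 of 19 at both times, with medians of 0.79 at 12 h and 0.77 at 6 h.

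Expansion and hormone genes followed. Of 12 expansins, which loosen cell walls, 4 had a lower difference and none a higher one (median -0.13), against 5.69% and 3.93% of genes tested. EXPA3 had 25.1 and 27.6 CPM in HL12h, 50.1 and 60.2 in GL12h, 31.8 and 32.6 in HL6h, and 29.1 and 28.8 in GL6h, a difference of -1.22 ± 0.13 (adjusted p = 2.29e-06). Only GL12h was high. GASA14, a gibberellin-responsive peptide that promotes leaf expansion, had 47.7 and 56.2 CPM in HL12h, 210.0 and 238 in GL12h, 36.8 and 36.7 in HL6h, and 43.7 and 41.5 in GL6h. Its difference was -1.89 ± 0.18 (adjusted p = 8.24e-07), and no other growth-light library of the course exceeded 73.7 CPM. GASA6 had 3.21 and 2.31 CPM in HL12h, 43.2 and 51.6 in GL12h, 14.8 and 11.2 in HL6h, and 61.3 and 61.0 in GL6h, and its difference of -1.86 ± 0.26 (adjusted p = 7.88e-05) lay in high light, where it fell by 2.23 log2. GA3OX1, which makes active gibberellin, was raised by high light at 12 h (0.43, adjusted p = 0.0449) and lowered at 6 h (-1.10), with 8.03 and 9.36 CPM in HL12h, 7.1 and 5.8 in GL12h, 4.65 and 4.87 in HL6h, and 10.7 and 9.72 in GL6h, a difference of 1.53 ± 0.25 (adjusted p = 0.000341). Of 47 light signalling and greening factors, 4 had a higher difference, 7 a lower one and 36 did not pass (median -0.02). BBX16, a B-box factor of light signalling, fell in both lights and more in high light. It had 1.3 and 0.807 CPM in HL12h, 15.1 and 13.5 in GL12h, 6.6 and 10.1 in HL6h, and 30.5 and 26.5 in GL6h, a difference of -1.98 ± 0.30 (adjusted p = 0.000182). GLK1, which activates chloroplast development genes, was lower at -0.79 ± 0.14 (adjusted p = 0.00117).

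Among defence and cell wall genes, 3 with a lower difference had GL12h as the highest of the 4 groups, which did not always hold over the course. ACD6, a regulator of cell death and defence, had 7.33 and 6.27 CPM in HL12h, 26.6 and 38.2 in GL12h, 11.4 and 8.71 in HL6h, and 6.96 and 10.5 in GL6h, a difference of -2.49 ± 0.34 (adjusted p = 8.61e-05). Its growth-light means were 15.1 CPM at 0.5 h, 8.71 at 6 h, 32.4 at 12 h, 47.5 at 24 h, 88.1 at 48 h and 140.0 at 72 h, so GL12h was not high for the course. AT3G16530, a legume lectin family gene, had 16.2 and 14.3 CPM in HL12h, 74.0 and 115 in GL12h, 22.1 and 27.2 in HL6h, and 27.6 and 32.3 in GL6h, a difference of -2.35 ± 0.42 (adjusted p = 0.00105). In growth light it averaged 116 CPM at 0.5 h, 30.0 at 6 h, 94.5 at 12 h and 88.4 to 109 at later times, so GL6h was the low time. XTH4, a wall-loosening xyloglucan enzyme, had 52.9 and 58.2 CPM in HL12h, 233 and 259 in GL12h, 76.7 and 64.9 in HL6h, and 159 and 172 in GL6h, a difference of -0.92 ± 0.16 (adjusted p = 0.000803). Its growth-light mean of 246 CPM at 12 h was the highest of the course, against 164 to 209 at the other times. Single libraries overlapped, since the highest growth-light library at the other times had 244 CPM, above the GL12h library of 233. In none of the 3 genes did the GL12h libraries overlap with those of the other 3 groups. As a list, 18 salicylic acid and defence genes had 2 lower differences and none higher (median 0.07), and none was lower without GL12h replicate 2, GL6h replicate 2 or HL12h replicate 1.

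Full turns of direction were few. High light raised 44 genes at 12 h that it lowered at 6 h, and lowered 110 genes at 12 h that it raised at 6 h, against calls in either direction in 45.2% of genes at 12 h and 41.1% at 6 h. NRAMP4, a vacuolar metal exporter, had 165 and 149 CPM in HL12h, 61.5 and 68.9 in GL12h, 91.7 and 109 in HL6h, and 127 and 116 in GL6h. Its light effect was 1.27 at 12 h and -0.28 at 6 h, a difference of 1.54 ± 0.15 (adjusted p = 1.27e-06). The counts were 25, 29, 23 and 27 in the upward direction without GL12h replicate 1, HL12h replicate 1, HL12h replicate 2 and HL6h replicate 2. In the downward direction they were 65, 59 and 70 without GL12h replicate 2, HL12h replicate 2 and HL6h replicate 2.

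The other times of the course place this step. The median light effect of small heat shock proteins was 0.06 log2 at 0.5 h, 0.75 at 6 h, 3.40 at 12 h, 3.10 at 24 h, 2.64 at 48 h and 2.36 at 72 h. That of late anthocyanin enzymes was -0.14 at 0.5 h, 1.43 at 6 h, 4.51 at 12 h, 2.79 at 24 h, 1.96 at 48 h and 3.21 at 72 h. In DFR the high-light mean was 204 CPM at 6 h, 497 at 12 h and 932 at 24 h, and the growth-light mean was 91.4 CPM at 6 h, 13.3 at 12 h and 128 at 24 h. The median of mitosis genes was -0.61 at 6 h, 0.02 at 12 h, -0.55 at 24 h, -0.48 at 48 h and -0.51 at 72 h. HSP101 averaged 23.4 CPM at 0.5 h, 14.2 at 6 h, 76.1 at 12 h, 65.7 at 24 h and 29.8 at 72 h in high light. Its growth-light mean at 0.5 h was 14.0 CPM.

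**Figure D5:**
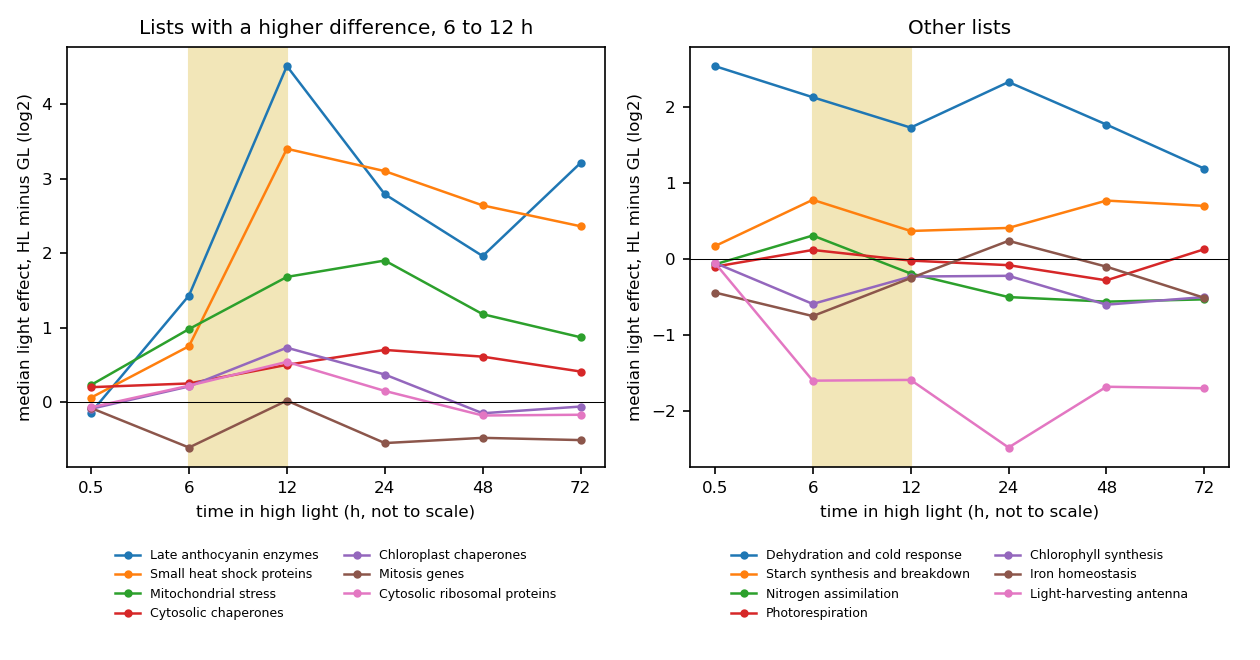
Median light effect (log2, high light minus growth light) of gene lists at 0.5, 6, 12, 24, 48 and 72 h, with the step between 6 and 12 h shaded. Time points are evenly spaced on the axis. Among the lists drawn the largest steps are those of late anthocyanin enzymes and small heat shock proteins, and the light-harvesting antenna stays at -1.60 at 6 h and -1.59 at 12 h.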

How the data were processed

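RNA of whole seedlings was sequenced as single-end reads of stranded mRNA libraries, per the labels' protocols. The deposited values are raw counts per gene. The submitters' processing notes name TopHat2 2.1.1, HTSeq 0.6.0 and edgeR together with the TAIR10 build. Sources used here give neither the role of each tool nor its strand setting, so overlapping and antisense genes may share reads.

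From these counts edgeR 4.0.16 (limma 3.58.1, R 4.3.3) fitted all 26 libraries in 13 groups with TMM factors and quasi-likelihood tests at 13 residual degrees of freedom. Of 33602 genes, 21449 passed filterByExpr with a minimum count of 10, and 6664 had no count in any library. The biological coefficient of variation was 6.54%. Calls are Benjamini-Hochberg adjusted p below 0.05 over all genes tested. Log2 fold changes are given with their SE, and 2 libraries per group limit the precision of every value. Totals were 16504899 to 29697279 counts in the 8 libraries. In data simulated for the difference of light effects, with 200 of 21449 genes changed and 21091 tested, 0% of 1.25-fold changes were recovered, 38% of 1.5-fold, 78% of 2-fold and 88% of 4-fold, with 3 false calls.

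The comparison and the 52 gene lists (986 of 1004 genes tested) were chosen with earlier results of these data known. Genes named are the 12 largest called differences each way with at least 5 CPM and no overlap of light effects, up to 5 called members a list, the 8 largest reversals each way, the 6 largest called growth-light changes each way, and a set named whatever its value. Others are said to be named after their values were seen. Over all genes tested, the 4 differences of high and growth light at 12 h all lay above the 4 at 6 h in 16.3%. They all lay below them in 18.1%. Absence of overlap in genes named for the largest differences was partly set by that rule. Alternatives were scaling by RLE or by the upper quartile, testing without a filter or with 1 CPM reached in 2 libraries, DESeq2 1.42.0, a replicate block, the 8 libraries alone, at least 2-fold change and each library left out. Names and the windows before gene starts came from RefSeq TAIR10.1, where 32835 of 33602 IDs matched. Of 27443 windows, 3942 belong to models that begin at the coding start.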

Additional observations from a re-analysis of the deposited data

Results flagged for a closer look

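The light effect was called different between 12 h and 6 h in 2062 genes by the test of the difference itself. The adjusted threshold limits the expected share of false calls among them and does not establish each gene. Among the genes named, those below had called light effects of opposite sign at 12 h and 6 h. Raised by high light at 12 h and lowered at 6 h were AT1G12030, a gene of unknown function (difference 2.25 log2), the metal exporter NRAMP4 (1.54), GA3OX1 of gibberellin synthesis (1.53), the coactivator MBF1C (1.44), the chitinase family gene AT2G43610 (1.41), the anthocyanin repressor MYBL2 (1.20), the cupin family gene AT5G38940 (1.11) and the receptor kinase ERL1 of the stomatal lineage (0.99). AT1G12030 had 3.21 and 4.07 CPM in HL12h, 1.94 and 2.08 in GL12h, 2.21 and 2.12 in HL6h, and 5.7 and 5.72 in GL6h.

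Lowered by high light at 12 h and raised at 6 h were BT1 (-2.40), AT2G25510 of unknown function (-1.85), the beta-amylase BAM6 (-1.75), NIR1 (-1.74), AT2G29170 (-1.67), the wall-associated kinase WAK1 (-1.59), the receptor-like kinase CRK14 (-1.54) and AT2G36220 of unknown function (-1.54). BT1 had 42.0 and 36.1 CPM in HL12h, 56.3 and 64.7 in GL12h, 56.8 and 74.0 in HL6h, and 18.5 and 20.0 in GL6h. In WAK1 the GL12h libraries had 7.62 and 15.2 CPM, against 7.96 and 6.6 in HL12h, so these groups overlapped.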

How the results depend on the processing

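Of the 201 named genes with a called difference, 125 were called in every alternative, the 2-fold threshold aside. Calls were lost in 5 named genes with RLE factors, 4 with upper-quartile factors, 14 with DESeq2, 46 with only the 8 libraries and 21 to 49 with 1 library left out. With only the 8 libraries 534 genes were higher and 755 lower, and DESeq2 gave 26 genes raised at 12 h and lowered at 6 h. Without a filter the 48 to 72 h step held 680 calls. With at least 2-fold change 179 genes were higher and 233 lower, light effects numbered 1994 at 12 h and 1771 at 6 h, changes 405 in high light and 479 in growth light, neighbouring steps 1649, 711, 558 and 66 in time order, and reversals 3 upward and 1 downward.

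With 1 library left out, counts ranged over 441 to 913 higher, 668 to 1269 lower, 7747 to 9818 for light at 12 h, 7204 to 8783 for light at 6 h, 1932 to 3565 in high light and 1732 to 3048 in growth light. The neighbouring steps ranged over 5497 to 6308, 1610 to 3402, 2541 to 2833 and 225 to 283 in time order, and reversals over 23 to 51 upward and 59 to 123 downward. The difference changed sign in TAT3 (called at -8.90 with all libraries, range -11.38 to 2.08, at 2.08 without GL12h replicate 2) and, among genes not called, in BIP3 (range -0.50 to 0.37), with -0.07 without GL12h replicate 2, -0.50 without GL6h replicate 1, -0.02 without HL12h replicate 1, -0.07 without HL6h replicate 1, in HY5 (range -0.07 to 0.23, with -0.07 without GL6h replicate 1, -0.01 without HL6h replicate 2) and in LOX2 (range -0.02 to 0.68, with -0.02 without HL6h replicate 1). The cause was not tested.

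Replicate numbers do not pair the samples, since deviations of same-numbered libraries correlated at -0.14 to 0.08. With the replicate block 833 genes were higher and 1186 lower, 9645 and 8764 had light effects at 12 h and 6 h, 3405 and 2944 changed in high and growth light, neighbouring steps held 6300, 3124, 2625 and 231 calls, and 44 and 106 genes reversed. Depth limits genes with few counts, and 371 genes tested had a group at 3 counts or fewer.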

Other observations

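Of the 6 chloroplast sigma factors, which direct the plastid polymerase to its promoters, 3 had a lower difference and none a higher one (median -0.32). Over all genes tested 5.69% were lower and 3.93% higher. SIG1 had 86.2 and 80.1 CPM in HL12h, 97.0 and 110.0 in GL12h, 101 and 113 in HL6h, and 70.2 and 79.9 in GL6h, a difference of -0.83 ± 0.14 (SE, edgeR adjusted p = 0.000433). Among indolic glucosinolate genes, whose products deter herbivores and microbes, 3 of 16 were lower, and 1 without HL12h replicate 2 or in the fit of only the 8 libraries. GSTF10 of that list had 221 and 211 CPM in HL12h, 409 and 426 in GL12h, 278 and 290.0 in HL6h, and 308 and 335 in GL6h, a difference of -0.77 ± 0.10 (adjusted p = 2.75e-05). RS2, annotated as seed imbibition 2, had 178 and 142 CPM in HL12h, 213 and 237 in GL12h, 195 and 160.0 in HL6h, and 85.5 and 87.0 in GL6h, a difference of -1.53 ± 0.21 (adjusted p = 6.3e-05).

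The site II element TGGGCC, searched on both strands, occurred in 23.3% of the windows of genes with a higher difference, 8.51% of those with a lower one and 15.9% of those of genes tested. It was in 22 of 32 ribosomal protein windows (68.8%), 11 of 16 small heat shock protein windows (68.8%) and 1 of 22 mitosis windows (4.55%). Lists with no higher difference also held it, in 35.7% of endoplasmic reticulum folding windows and 27.6% of photosystem and electron transport windows. Mitochondrial stress windows held it in 18.2%. These shares are descriptions of letters and carry no test.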
